A study of Mus musculus with 16 samples.

Results

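S100a8, S100a9, Retnlg, Mmp8, Mmp9, Csf3r, Cxcr2, Il1r2, Stfa2l1, and Hdc are genes that mature neutrophils transcribe, and they were followed here in RNA-Seq counts of CD11b+ brain cells from mice on a standard or malnourished diet. The 10 genes were taken by name from the 24421 rows of the count table, and they were chosen by their counts in these same libraries, since results of the MAL-BG comparisons were known when they were listed. Their values in those comparisons are therefore a description with no test, while MAL versus CON, which did not serve to choose them, was tested. All 10 had a row, and all 10 were among the 14565 genes that exceeded 10 counts in 4 or more libraries. Stfa2l1 passed this filter through MAL-BG alone, with more than 10 counts in 0 CON or MAL libraries and in 5 MAL-BG libraries.

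The 16 libraries came from C57BL/6J mice that were assigned to a diet at weaning, and tissue was taken about a month later. The 4 CON libraries came from mice on standard chow, and the 5 MAL libraries from mice on an isocaloric diet low in protein and fat. The 7 MAL-BG libraries came from mice on this low protein and fat diet that were also gavaged repeatedly with a mixture of E. coli and Bacteroidales, whereas mice of the other groups were gavaged with PBS. No library of mice given the bacteria on standard chow was analysed here, so bacteria and the low protein diet together are compared with CON, and bacteria alone only on the malnourished diet. The labels name cortical tissue and the methods whole cerebra. The tissue was dissociated with enzymes and cells were held on a magnetic column by beads against CD11b, a surface integrin of microglia that neutrophils, monocytes, and NK cells also carry, so the fraction can hold all of these. Total counts on genes were 10312703 to 13461574 in CON, 10864121 to 12819982 in MAL, and 14191791 to 18705202 in MAL-BG. Libraries are named by the numbers of the table's columns, which match no sample title. Neither the labels nor the methods say that each library is 1 mouse, so p-values measure the spread between these samples.

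Neutrophils are short-lived granulocytes made in the bone marrow. Their precursors fill the granules with enzymes such as myeloperoxidase and elastase and then with lactoferrin and lipocalin, and transcription of these genes ends before the cell is mature. A mature cell instead transcribes S100a8 and S100a9, the granule and secreted proteases Mmp8 and Mmp9, and surface receptors through which it is released from marrow and drawn into tissue. Few neutrophils lie in the parenchyma of a healthy brain. They are found mainly in blood, meninges, and skull marrow. In bulk RNA, more cells of a type and more RNA per cell cannot be told apart.

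The 10 genes lie on 6 chromosomes of GRCm38.p6. S100a8 (chr3:90669071-90670034) and S100a9 (chr3:90692630-90695721) are neighbours. Retnlg (chr16:48872608-48874498) and Stfa2l1 (chr16:36156811-36161948) share a chromosome, as do Mmp9 (chr2:164940326-164955850) and Hdc (chr2:126593659-126624025), and Cxcr2 (chr1:74153994-74161246) and Il1r2 (chr1:40084692-40125230). Mmp8 is at chr9:7558429-7568486 and Csf3r at chr4:126023441-126044975. The exons of no member overlapped those of another gene. Of all runs of 42 bases in the transcripts, the length of 1 read, 30.7% of those of Stfa2l1 also occur in Stfa2 or Gm49652, so its counts are uncertain with respect to this family. The share was 15.3% for Csf3r, 8.75% for Cxcr2, 1.63% for Retnlg (shared with Retnla), 0.267% for Hdc, and 0 for the other 5.

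C/EBP proteins and PU.1 are the transcription factors through which the myeloid lineage builds its granulocyte genes. RefSeq starts of transcription were available for 9 of the 10 members and not for Mmp9. Within the 250 bases upstream of the start, the letters TTGCNNAA of C/EBP occurred on either strand in 3 of these 9 (S100a9, Retnlg, Mmp8), against 9.56% of 32851 upstream windows of the reference. The letters GAGGAA of PU.1 occurred in 5 of the 9 (S100a8, Mmp8, Csf3r, Cxcr2, Stfa2l1), against 23.3% of these windows. Upstream sequences are shown for 4 members that were higher in MAL-BG and whose windows overlap no annotated exon, so that the matches can be seen in place. Capitals mark a match on either strand, and each sequence is 5′ to 3′ on the strand of its gene in GRCm38.p6, from RefSeq: S100a9 at chr3:90695722-90695971 (minus strand), Retnlg at chr16:48872358-48872607, Mmp8 at chr9:7558179-7558428, and Stfa2l1 at chr16:36156561-36156810 (plus strand).
S100a9: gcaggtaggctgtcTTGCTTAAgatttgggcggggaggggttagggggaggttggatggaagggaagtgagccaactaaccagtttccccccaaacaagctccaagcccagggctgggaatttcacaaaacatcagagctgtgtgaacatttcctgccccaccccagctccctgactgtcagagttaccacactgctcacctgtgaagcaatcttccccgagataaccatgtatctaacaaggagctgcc
Retnlg: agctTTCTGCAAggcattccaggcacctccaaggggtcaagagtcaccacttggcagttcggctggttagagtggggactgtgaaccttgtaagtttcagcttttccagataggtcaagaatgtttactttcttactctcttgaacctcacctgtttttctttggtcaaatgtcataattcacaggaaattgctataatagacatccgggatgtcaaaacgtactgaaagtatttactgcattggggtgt
Mmp8: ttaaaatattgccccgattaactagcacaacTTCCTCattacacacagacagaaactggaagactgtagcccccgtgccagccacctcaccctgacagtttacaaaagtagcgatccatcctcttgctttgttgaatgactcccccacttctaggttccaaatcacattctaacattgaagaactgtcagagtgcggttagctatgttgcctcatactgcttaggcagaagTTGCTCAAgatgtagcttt
Stfa2l1: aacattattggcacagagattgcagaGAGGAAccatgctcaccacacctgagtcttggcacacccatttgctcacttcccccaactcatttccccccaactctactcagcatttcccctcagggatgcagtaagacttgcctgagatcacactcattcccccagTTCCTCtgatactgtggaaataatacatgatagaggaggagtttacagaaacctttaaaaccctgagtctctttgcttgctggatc
The C/EBP match began 236 bases before the start of S100a9, 246 before that of Retnlg, and 19 before that of Mmp8. PU.1 matches began 219 bases before the start of Mmp8 and at 224 and 86 before that of Stfa2l1. A match is a description of letters, not evidence of binding. The windows of Il1r2 and Hdc held neither motif.

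Levels are given in CPM, which are counts relative to the library size after TMM scaling in edgeR. Between genes, levels are compared per kilobase of exon. In CON, Csf3r had the highest level per length (167.5 ± 96.4 CPM per kb, SD, n = 4), followed by S100a9 (88.9 ± 33.7) and S100a8 (38.9 ± 15.98), and neighbours among these 3 overlapped between libraries. Retnlg (7.08 ± 3.55) lay below the range of S100a8. The remaining CON levels per length were 3.28 ± 0.70 for Hdc, 2.31 ± 0.52 for Il1r2, 1.32 ± 0.28 for Mmp8, 1.22 ± 0.96 for Mmp9, 0.79 ± 0.45 for Cxcr2, and 0.52 ± 0.21 for Stfa2l1, and adjacent genes among the last 4 overlapped. Median levels per length in MAL-BG stood in another order, with S100a9 at 423.8, S100a8 at 209.4, Csf3r at 131.4, and Retnlg at 54.3 CPM per kb. They were 10.3 for Mmp9, 3.96 for Mmp8, 3.38 for Stfa2l1, 3.12 for Hdc, 2.23 for Cxcr2, and 1.24 for Il1r2. Adjacent genes in this order overlapped between the MAL-BG libraries throughout.

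S100a8 and S100a9 encode the subunits of calprotectin, a protein that binds calcium, zinc, and manganese and fills the cytosol of neutrophils. S100a8 measured 22.3, 41.8, 15.8, and 28.01 CPM in the 4 CON libraries and 25.6, 50.8, 11.96, 66.4, and 12.4 CPM in the 5 MAL libraries. In MAL-BG it ranged from 49.9 to 2670 CPM, with a median of 145.3. All 7 MAL-BG libraries were above all CON libraries, and 6 of 7 were above the highest MAL library. How many of all tested genes had this order against CON alone was not computed. Here and for the members below, the order carries no weight of its own, since the members were chosen on these libraries. The fitted log2 fold change of S100a8 was 4.39 (SE 1.10) against CON and 4.08 (SE 0.98) against MAL. S100a9 measured 45.2, 67.4, 24.4, and 48.7 CPM in CON, 46.6, 83.8, 22.8, 135.8, and 19.2 CPM in MAL, and 72.0 to 3831 CPM in MAL-BG, with a median of 221.2. Again every MAL-BG library lay above CON, and 5 of 7 lay above the highest MAL library, replicate 4. Its log2 fold change was 4.21 (SE 1.07) against CON and 3.80 (SE 0.95) against MAL. The subunits kept a narrow ratio while their levels spread, since counts of S100a9 over counts of S100a8 were 1.55 to 2.02 in CON, 1.55 to 2.05 in MAL, and 1.44 to 2.25 in MAL-BG. Together they took 0.0042% to 0.0114% of counts in CON, 0.0034% to 0.0196% in MAL, and 0.0118% to 0.143% in the other 6 MAL-BG libraries, while they took 0.641% in MAL-BG replicate 5 (95% exact Clopper-Pearson interval 0.637% to 0.644%, which covers counting error only).

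Retnlg, a resistin-like protein secreted by neutrophils, was at 6.99, 4.64, 2.36, and 2.80 CPM in CON and at 3.41, 3.28, 2.07, 18.1, and 2.39 CPM in MAL. MAL-BG libraries held 12.5 to 320.2 CPM of Retnlg, with a median of 32.2. All were above CON and 6 of 7 were above every MAL library, MAL replicate 4 being the exception that overlapped. Retnlg had the largest fold change of the 10 genes against CON, 4.55 (SE 0.97) on the log2 scale, and stood at 4.07 (SE 0.85) against MAL. Stfa2l1 belongs to the stefin A cluster, whose proteins inhibit cysteine proteases of the cathepsin family. It was the least abundant member, at 0.31, 0.093, 0.24, and 0.23 CPM in CON and 0.085, 0.15, 0.086, 0.40, and 0 CPM in MAL, which amounts to 11 counts over the 4 CON and 9 over the 5 MAL libraries. MAL-BG libraries ranged from 0.48 to 3.04 CPM (median 1.42, 156 counts in all), above all 9 other libraries. The log2 fold change of Stfa2l1 was 2.64 (SE 0.68) against CON and 3.20 (SE 0.66) against MAL.

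**Figure D1:**
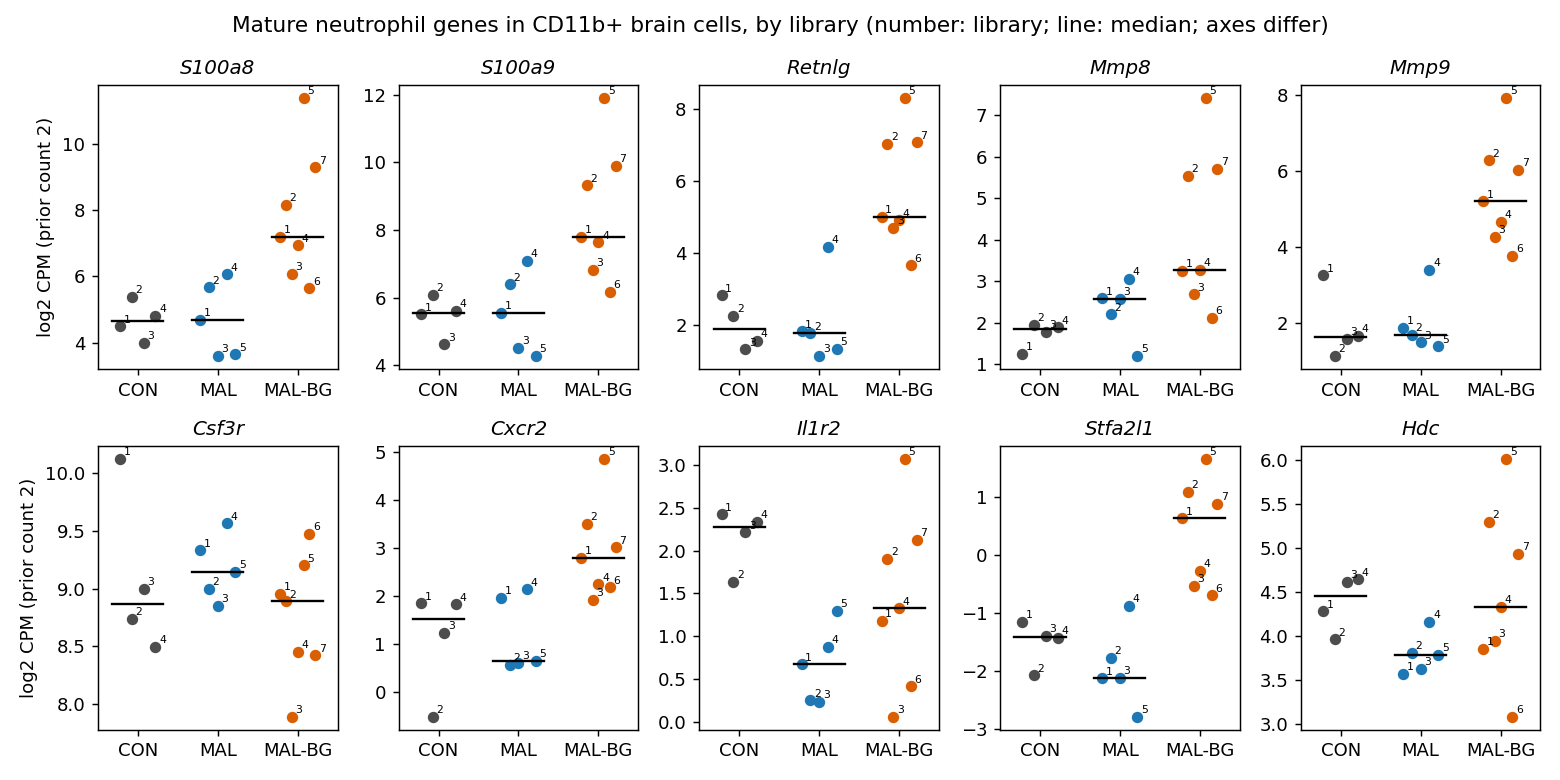
Log2 CPM (vertical axis, prior count of 2) of the 10 mature neutrophil genes in each library of CON (n = 4), MAL (n = 5), and MAL-BG (n = 7). Points are libraries with their number, lines are medians, and each panel has its own scale. MAL-BG replicate 5 is the highest MAL-BG library in 9 panels, and Csf3r is the exception.

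Mmp8 and Mmp9 encode neutrophil collagenase and gelatinase B, zinc proteases that are stored in granules and cut collagen and basement membrane. Mmp8 was at 2.23, 3.71, 3.31, and 3.56 CPM in CON, 5.87, 4.48, 5.85, 8.22, and 2.15 CPM in MAL, and 4.22 to 171.5 CPM in MAL-BG, with a median of 9.59. MAL-BG lay above CON, while only 5 of 7 libraries were above MAL replicate 4. Its log2 fold change was 3.74 (SE 0.95) against CON and 3.01 (SE 0.82) against MAL. Mmp9 measured 9.37, 2.04, 2.84, and 3.03 CPM in CON and 3.49, 3.06, 2.67, 10.4, and 2.47 CPM in MAL. It ranged from 13.5 to 241.6 CPM in MAL-BG, with a median of 36.5, and all 7 libraries were above all 9 others. The log2 fold change of Mmp9 was 3.97 (SE 0.83) against CON and 3.95 (SE 0.75) against MAL. Mmp9 and Stfa2l1 were the 2 members whose MAL-BG libraries all lay above the other 9, as did those of 6.17% of all tested genes. For Stfa2l1 the filter favored this order, since it passed through MAL-BG alone. Its gap was also narrow, at 0.48 CPM in the lowest MAL-BG library against 0.40 CPM in the highest other.

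Of the receptors, Cxcr2 binds the chemokines that draw neutrophils out of marrow and into tissue. Cxcr2 was at 3.46, 0.56, 2.21, and 3.41 CPM in CON, 3.75, 1.34, 1.38, 4.27, and 1.43 CPM in MAL, and 3.65 to 29.0 CPM in MAL-BG, with a median of 6.78. MAL-BG was above CON in all libraries, though the lowest MAL-BG library (3.65) exceeded the highest CON library (3.46) by little. Fitted log2 fold changes of Cxcr2 were 1.99 (SE 0.62) and 1.99 (SE 0.57) against CON and MAL. The call against CON was lost without CON replicate 2 (1.67), and scaling by a microglia list ended the calls against both CON (1.02) and MAL (1.18).

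Csf3r, the receptor of granulocyte colony-stimulating factor, is also transcribed in monocytes and microglia. It measured 1118, 426.6, 512, and 361.2 CPM in CON, 645.2, 511.9, 461.4, 757.8, and 566.3 CPM in MAL, and 237.2 to 712.5 CPM in MAL-BG, with a median of 474.2. The 3 groups overlapped widely, and the highest library of all was CON replicate 1. The log2 fold change of Csf3r was -0.40 (SE 0.30) against CON and -0.36 (SE 0.28) against MAL, and without CON replicate 1 the former was 0.07. When libraries were instead scaled by the summed level of a microglia list, the log2 fold change of Csf3r was called lower, at -1.36 against CON and -1.31 against MAL. That scale lowers every gene of MAL-BG alike, with a median over all genes of -1.11 against CON and -1.01 against MAL.

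Il1r2 encodes the decoy receptor that binds interleukin-1 without signaling. Its levels were 5.22, 2.97, 4.49, and 4.92 CPM in CON and 1.45, 1.04, 1.03, 1.69, and 2.31 CPM in MAL. MAL-BG libraries ranged from 0.90 to 8.30 CPM, with a median of 2.37, and overlapped with both groups. The log2 fold change of MAL-BG was -0.44 (SE 0.46) against CON and 1.11 (SE 0.46) against MAL. Scaling by the microglia list, which shifts all genes down, gave -1.46 against CON and a lower call. Without MAL-BG replicate 5 these values were -0.90 and 0.65. The difference from MAL was called with DESeq2 (1.13), with scaling by the mean log2 CPM (1.31), and without MAL-BG replicate 3 (1.27) or 6 (1.25).

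Hdc encodes histidine decarboxylase, the enzyme that makes histamine, which is found in neutrophils as well as in mast cells, basophils, and some neurons. Hdc was at 19.3, 15.4, 24.4, and 24.8 CPM in CON, 11.8, 13.9, 12.2, 17.7, and 13.6 CPM in MAL, and 8.32 to 64.3 CPM in MAL-BG, with a median of 19.9. Of the MAL-BG libraries, 3 were above all others and the lowest was below all of CON and MAL. Its log2 fold change was 0.38 (SE 0.40) against CON and 0.98 (SE 0.38) against MAL. The call of Hdc against MAL was lost in 11 of the 16 fits that left out 1 library, CON and MAL libraries included, at 0.59 to 1.0003. The lowest of these was without MAL-BG replicate 5, where the value against CON was -0.01. Scaling by the microglia list gave -0.66 and 0.06. Of 10 mast cell and basophil markers, 6 were highest in MAL-BG replicate 5. Among these, the mast cell carboxypeptidase Cpa3 measured 0 to 0.74 CPM in CON, 0.059 to 0.53 CPM in the other MAL-BG libraries, and 2.88 CPM in replicate 5. The basophil protease Mcpt8 was at 0.077 to 3.34 CPM in CON, 0.12 to 4.90 CPM in the other MAL-BG libraries, and 19.4 CPM in replicate 5. The mast cell proteases Mcpt4, Tpsb2, and Tpsab1 were at 0 in replicate 5, and Cma1 was at 2.44 CPM there and at 1.37 to 7.25 CPM in the other MAL-BG libraries. The summed level of these 10 markers was 4.15 to 18.3 CPM in CON, 4.43 to 10.4 in MAL, and 4.64 to 80.7 in MAL-BG, and their part in Hdc was not tested.

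Counted over the members, 7 of 10 met the DEG criteria (adjusted p under 0.05 in edgeR's quasi-likelihood test and an absolute log2 fold change above 0.58) as higher in MAL-BG than in CON, and 0 as lower. Of all tested genes, 11.4% were called higher and 21.7% lower in that comparison. Against MAL, 8 of 10 were called higher, the same 7 and Hdc, while 10.2% of all tested genes were called higher and 20.2% lower. These member counts restate how the genes were chosen and carry no weight of their own. The comparisons share the MAL-BG libraries. With the microglia list as the scale, the calls against CON were 6 higher and 2 lower, where 0.281% of all tested genes were called higher and 77.6% lower.

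**Figure D2:**
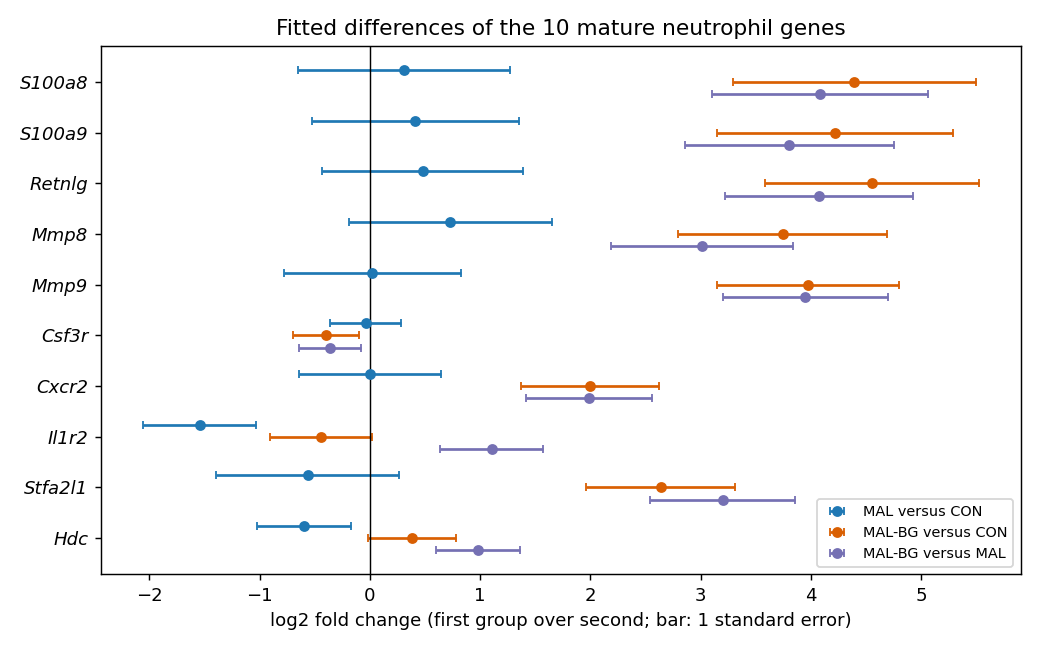
Fitted log2 fold changes (horizontal axis) of the 10 genes in the 3 comparisons, with bars of 1 standard error. S100a8, S100a9, Retnlg, and Mmp9 lie between 3.80 and 4.55 in both MAL-BG comparisons, Csf3r lies close to 0 in all 3, and Il1r2 in MAL versus CON lies at -1.54.

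MAL versus CON asks what the diet did without the bacteria, and in this comparison 0 of the 10 members were called by edgeR, against 0% of all tested genes, with DESeq2 giving 0 as well. At an unadjusted p under 0.05 there was 1 member, Il1r2, while 1.46% of all tested genes (212) passed this mark. Il1r2 was lower in all 5 MAL libraries than in all 4 CON libraries, with a log2 fold change of -1.54 (SE 0.52, adjusted p = 0.9995 in edgeR's quasi-likelihood test), and 0.302% of all tested genes had every MAL library below every CON library. Leaving out each library in turn gave log2 fold changes of Il1r2 from -1.76 to -1.44. For S100a8, S100a9, Retnlg, and Mmp8 the log2 fold changes were 0.31 (SE 0.96), 0.41 (SE 0.94), 0.48 (SE 0.91), and 0.73 (SE 0.92). These rested in part on MAL replicate 4, without which S100a8, S100a9, and Retnlg were at -0.10, -0.11, and -0.59. Mmp9 and Cxcr2 were at 0.02 (SE 0.80) and 0.0046 (SE 0.64), Csf3r at -0.04 (SE 0.32), Stfa2l1 at -0.56 (SE 0.83), and Hdc at -0.60 (SE 0.43). The standard error was 0.80 to 0.96 for S100a8, S100a9, Retnlg, Mmp8, Mmp9, and Stfa2l1, which is close to the size of a 2-fold change. The error was smaller, 0.32 to 0.64, for Csf3r, Hdc, Il1r2, and Cxcr2.

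The rise was unequal among MAL-BG libraries. Replicate 5 was the highest MAL-BG library for 9 of 10 genes, and replicates 5, 7, and 2 were the top 3 for the same number. Replicate 6 was the lowest for 7. The highest MAL-BG library exceeded the lowest by 53.6-fold for S100a8, 53.2-fold for S100a9, 40.7-fold for Mmp8, 25.5-fold for Retnlg, and 17.9-fold for Mmp9. The corresponding ratios among CON libraries were 2.65, 2.76, 1.67, 2.96, and 4.59. By contrast, Csf3r varied 3.003-fold in MAL-BG and 3.10-fold in CON.

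Replicate 5 weighed on the size of the fold changes. Without it, MAL-BG over CON came to 2.98 on the log2 scale for S100a8, 2.95 for S100a9, 3.85 for Retnlg, 2.71 for Mmp8, 3.16 for Mmp9, 1.39 for Cxcr2, and 2.30 for Stfa2l1. All 7 were still called higher, against CON and against MAL. In that fit 1620 of 14505 tested genes were called higher against CON and 1498 against MAL. The member count again carries no weight of its own, since the members were chosen on these libraries. Against MAL the values without replicate 5 were 2.67 for S100a8, 2.55 for S100a9, 3.37 for Retnlg, 1.98 for Mmp8, 3.14 for Mmp9, 1.39 for Cxcr2, and 2.87 for Stfa2l1.

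Within MAL-BG, the correlation of log2 CPM between members over the 7 libraries is given as a description, with no test, since the members were chosen on these libraries and the libraries share their depth and scaling. S100a8 and S100a9 were high and low in the same libraries (Pearson's r = 0.994, Spearman's rho = 1), and r was 0.991 without the 2 libraries farthest from the median of S100a8. Mmp8 and Mmp9 gave r = 0.979 and rho = 0.929, and r was 0.964 without the 2 farthest libraries. For Csf3r and Cxcr2, r was 0.437 and rho 0.286. Their r was 0.776 without the 2 farthest libraries, and 0.828 without replicate 6 alone, in which Csf3r was highest and Cxcr2 low. Of all 45 pairs, the 36 without Csf3r had r from 0.874 to 0.994 (median 0.951), and the 9 with Csf3r had r from 0.0056 to 0.437 (median 0.189).

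**Figure D3:**
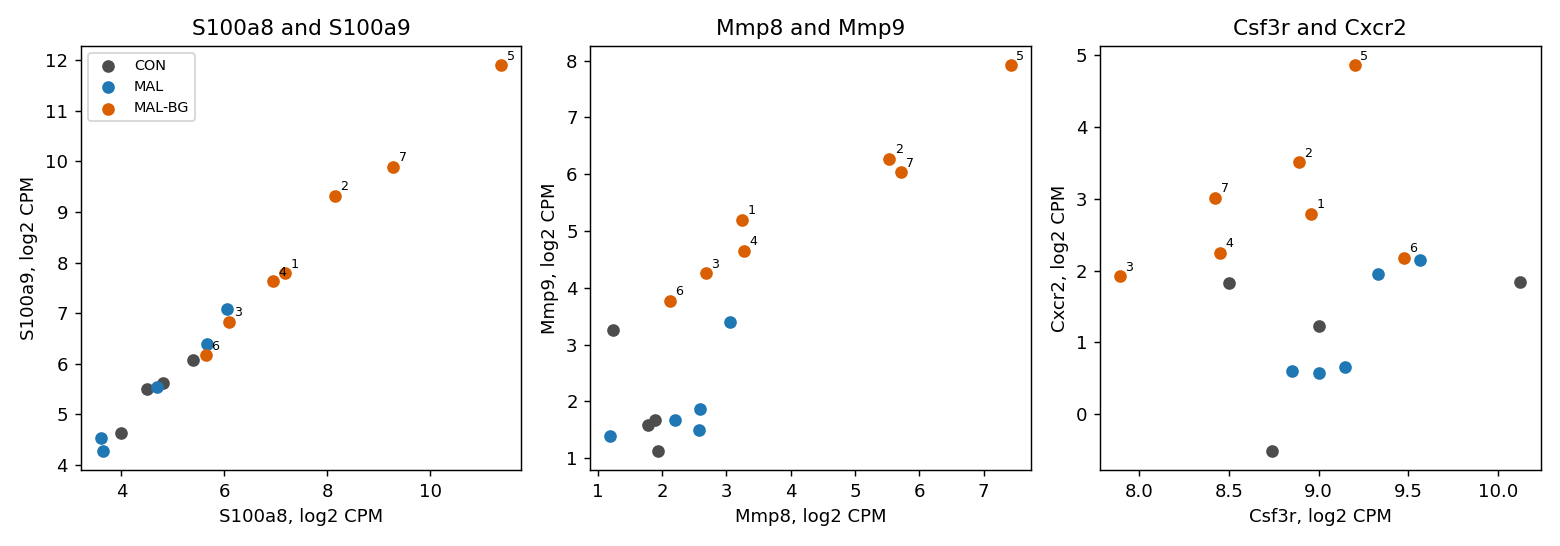
Log2 CPM of S100a9 against S100a8, Mmp9 against Mmp8, and Cxcr2 against Csf3r, with 1 point per library colored by group and MAL-BG libraries numbered. The first pair lies on a line through all 3 groups (r = 0.994 within MAL-BG), whereas Csf3r and Cxcr2 scatter (r = 0.437).

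Other genes of mature neutrophils were followed as a list that was also chosen with earlier results known. Since the members were chosen on these libraries, the lists are not compared in how uniformly they moved. Of 32 listed, 30 had a row and 29 were tested, and MAL-BG versus CON called 15 of them higher and 1 lower, the median log2 fold change being 1.62, while the median of all tested genes was -0.04. Against MAL, 14 were higher and 1 lower (median 1.51). Of all tested genes, 11.4% were called higher and 21.7% lower against CON, and 10.2% and 20.2% against MAL. Of the 29, 6 had passed the filter on low counts mainly through MAL-BG, with more than 10 counts in fewer than 4 CON and MAL libraries. The largest rises against CON were those of Wfdc21 (5.20, SE 1.34), a protein with a whey acidic protein domain, Mrgpra2b (4.73, SE 1.29), a receptor that triggers neutrophil degranulation and held 2 counts in all of CON, and Lrg1 (4.64, SE 0.81), a granule glycoprotein. Wfdc21 and Mrgpra2b were among the 6 that passed mainly through MAL-BG, with more than 10 counts in 3 and 0 CON and MAL libraries. Without MAL-BG replicate 5, Mrgpra2b was not tested, while Wfdc21 and Lrg1 were at 4.01 and 3.92. Cd177, a surface protein of neutrophils, rose by 2.48 (SE 0.95), but was at 1.14 and not called without MAL-BG replicate 5. Ccrl2, a chemerin-binding receptor that microglia also transcribe, fell by 1.93 on the log2 scale (SE 0.23). Without MAL-BG replicate 5, 11 of 28 were higher and 1 lower, and the median against CON was 0.71. With the microglia list as the scale, 6 of 29 were higher and 3 lower than in CON, against 0.281% and 77.6% of all tested genes. The defining surface marker Ly6g was not analysed here.

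Granule genes that neutrophil precursors transcribe also had their highest summed levels in MAL-BG replicates 5, 7, and 2. Of 14 listed, 13 were tested, 10 were called higher and 0 lower against CON (median 4.94), and 11 were higher than in MAL (median 4.78), while 8 of the 13 had passed the filter mainly through MAL-BG. The shares of all tested genes called higher were 11.4% against CON and 10.2% against MAL. Elastase (Elane) and myeloperoxidase (Mpo), made earliest, were at 0 to 2.23 and 0 to 7.89 CPM in CON, with CON replicate 2 the highest in both cases. They were at 254 and 506.5 CPM in MAL-BG replicate 5. Their log2 fold changes against CON were 5.93 (SE 1.95) and 5.45 (SE 1.93), but 2.58 and 2.33, neither called, without replicate 5. The later granule genes Ltf, for lactoferrin (5.64, SE 1.38), Camp, for cathelicidin (5.30, SE 1.43), Lcn2, for lipocalin 2 (4.94, SE 1.297), and Ngp (4.76, SE 1.46) were still called without it, at 4.39, 3.94, 3.30, and 2.92. Without replicate 5 the calls against CON fell from 10 to 5 of 12 tested, and the median to 2.48. Against MAL, 7 of the 12 were called higher without replicate 5 (median 2.897), Elane (3.997) and Mpo (5.36) among them. Elane and Mpo were among those that passed the filter mainly through MAL-BG, with more than 10 counts in 1 CON or MAL library each. Over all of MAL they held 15 and 14 counts, so the filter favored a rise over MAL. In summed CPM over the 14 genes, CON held 31.9 to 142.7, MAL 49.0 to 177.5, and MAL-BG 59.9 to 8264.

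**Figure D4:**
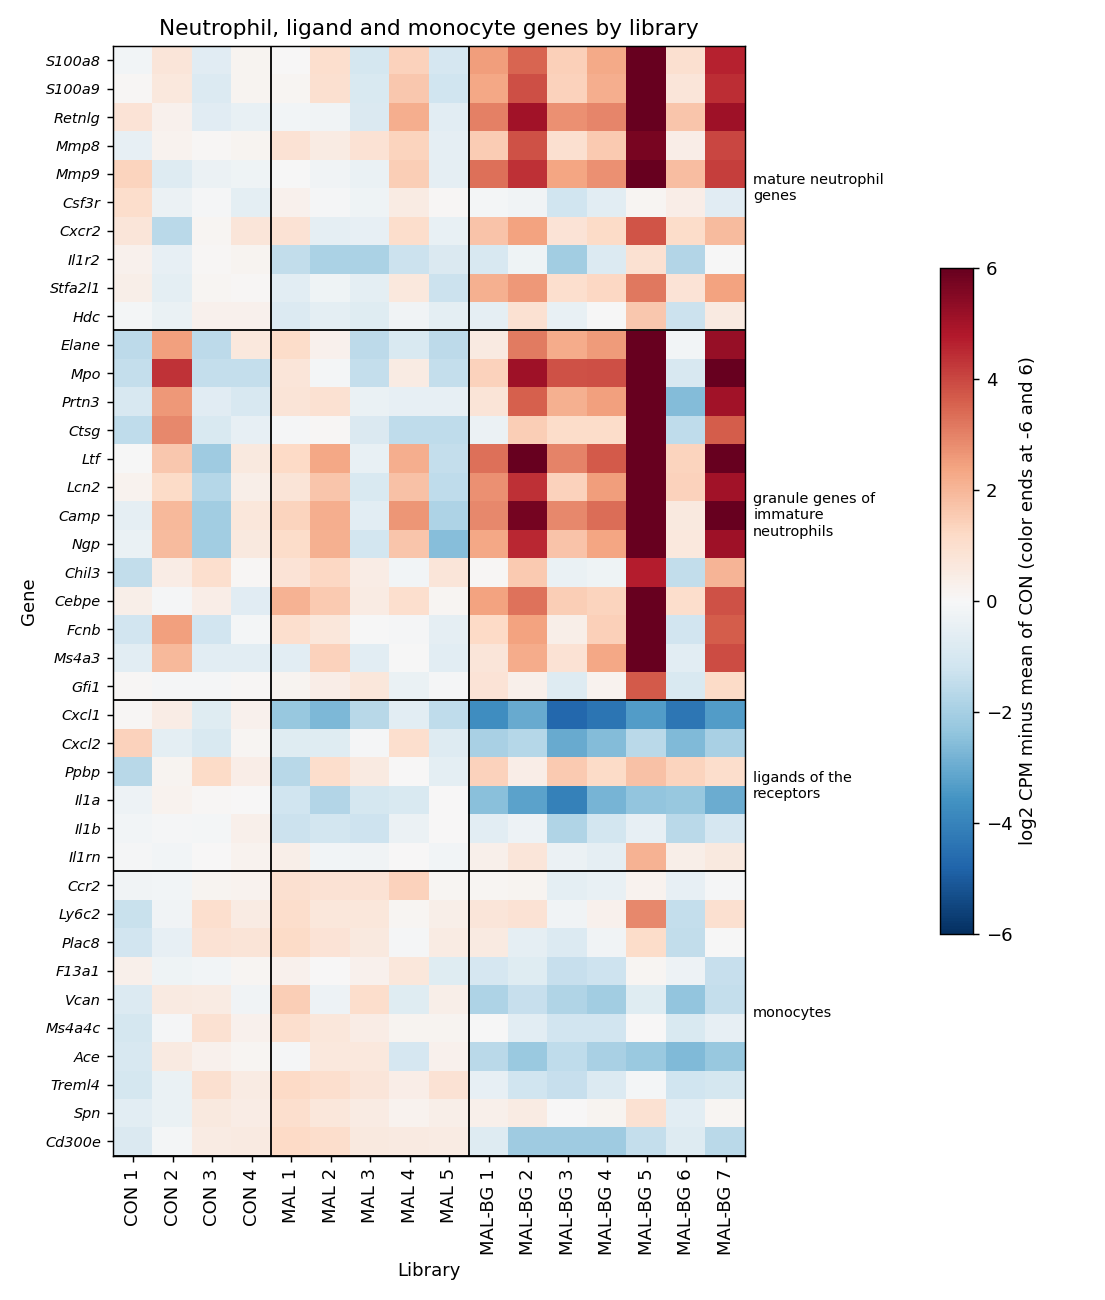
Log2 CPM of each gene minus its mean in CON (color, with the scale ending at 6 in either direction), for the tested genes of 4 lists (rows) in the 16 libraries (columns). Among the 10 members, genes other than Csf3r, Il1r2, and Hdc are darkest in MAL-BG replicates 5, 7, and 2. So are the granule genes of immature neutrophils other than Gfi1, Ms4a3, Ctsg, and Fcnb. Cxcl1, Cxcl2, and Il1a are lower in all 7 MAL-BG libraries.

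Several ligands of the receptors among the members were lower in MAL-BG. Of 10 listed genes, 6 were tested, 0 were called higher and 4 lower against CON (median -1.68), where 11.4% of all tested genes were called higher and 21.7% lower. The list was chosen with earlier results of these data known, so the p-values given here are descriptive and not independent evidence. Cxcl1, a chemokine that binds CXCR2, was at 18.9, 24.8, 10.9, and 21.8 CPM in CON, 3.66, 2.69, 5.68, 11.7, and 6.29 CPM in MAL, and 0.55 to 2.15 CPM in MAL-BG. The MAL-BG libraries were below all others, at -3.93 on the log2 scale against CON (SE 0.40, adjusted p = 6.02e-06) and -2.26 against MAL (SE 0.38, adjusted p = 0.000258). Cxcl2, another CXCR2 ligand, changed by -2.44 (SE 0.42, adjusted p = 0.000328) and -2.09 (SE 0.41, adjusted p = 0.000774). The interleukin-1 genes, whose products IL1R2 binds, were also lower than in CON, Il1a at -2.80 on the log2 scale (SE 0.31, adjusted p = 1.08e-05) and Il1b at -0.91 (SE 0.28, adjusted p = 0.0153). Il1b did not pass the test against MAL (-0.19, SE 0.27). Ppbp, a platelet chemokine that also binds CXCR2, had a positive difference that did not pass the test against CON (1.20, SE 0.68) or MAL (1.40, SE 0.64). Il1rn, the gene of the interleukin-1 receptor antagonist, did not pass against CON either (0.71, SE 0.40). Csf3, which encodes the ligand of the Csf3r product, was near 0, with at most 0.31 CPM in any library, and was not tested. In MAL versus CON, 0 of the 6 were called, and 3 had an unadjusted p under 0.05.

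Of 13 related receptors, 11 were tested, and 2 were called in MAL-BG versus CON, both lower, Csf2ra, a receptor subunit for GM-CSF (-1.18, SE 0.33), and the histamine receptor Hrh3 (-3.31, SE 0.74). In that comparison 11.4% of all tested genes were called higher and 21.7% lower. Cxcr1 had at most 0.49 CPM. Of 10 metalloproteinase relatives and inhibitors, 9 were tested and Mmp14, a membrane-bound activator of other metalloproteinases, was the 1 called (1.10, SE 0.21). Of 11 other S100 genes, 9 were tested, S100a6 (0.99, SE 0.38) and S100a13 (0.60, SE 0.21) were higher, and S100a1 (-1.16, SE 0.33) and S100a5 (-3.10, SE 1.06) were lower, with a median of 0.04. Retnla, the relative that shares sequence with Retnlg, was higher (1.83, SE 0.65). None of the 7 genes of the stefin A cluster beside Stfa2l1 was tested, but Gm5483 had 61 counts and Stfa2 had 9 in MAL-BG replicate 5, against at most 4 and 1 in any CON or MAL library. The microglia list as the scale left 0 of the S100, metalloproteinase, and resistin-like genes called higher and 5, 5, and 0 lower. On that scale 0.281% of all tested genes were called higher and 77.6% lower.

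Other cell types of the fraction also differed between groups, and their part in the results on the members was not tested. Of all tested genes, 11.4% were called higher and 21.7% lower in MAL-BG than in CON. With the microglia list as the scale these shares were 0.281% and 77.6%. The summed level of 10 monocyte genes was 403.8 to 805.9 CPM in CON, 618.6 to 968.3 in MAL, and 232.1 to 583.4 in MAL-BG, and 5 of 10 were lower and 0 higher in MAL-BG than in CON. Those with the largest changes were Ace (-2.11), Vcan (-1.76), and Cd300e (-1.59), while Ccr2, the chemokine receptor of classical monocytes, was at -0.14. Ace alone held 170.5 to 475.6 CPM of the monocyte sum in CON and 51.4 to 115.4 CPM in MAL-BG. Ace was lowest in CON replicate 1 and MAL replicate 4 and highest in replicate 2 of both groups, as was the choroid plexus sum. A monocyte sum without Ace was not tested. The 12 microglia genes summed to 17640 to 28810 CPM in CON and 38820 to 52720 CPM in MAL-BG, with 8 called higher, among them Cx3cr1 (1.33) and Trem2 (1.29), and 0 higher and 3 lower where this list was itself the scale. The 10 choroid plexus genes were all lower, led by Clic6 (-2.86), Kl (-2.83), and Aqp1 (-2.80), and summed to 13930 to 54100 CPM in CON and 1775 to 16590 CPM in MAL-BG. Lymphocyte genes were higher for 4 of 7 tested, Nkg7 (1.82), Cd79b (1.51), Ncr1 (1.04), and Ccl5 (0.94), and summed to 82.7 to 134.8 CPM in MAL-BG and 35.3 to 58.3 CPM in CON, while the microglia list as the scale gave 1 higher and 3 lower. Of 5 platelet and erythroid genes tested, Alas2 (1.32) and Gp9 (0.69) were higher, and the 10 listed summed to 53.4 to 136.8 CPM in CON and 60.7 to 89.7 CPM in MAL-BG, with 0 higher and 2 lower under the microglia scale. Of 4 mast cell and basophil genes tested, Cma1 was higher (1.79), though not under that scale. In replicate 5 none of the microglia, lymphocyte, or choroid plexus sums was the highest of MAL-BG, whereas the neutrophil, monocyte, and mast cell and basophil sums were.

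**Figure D5:**
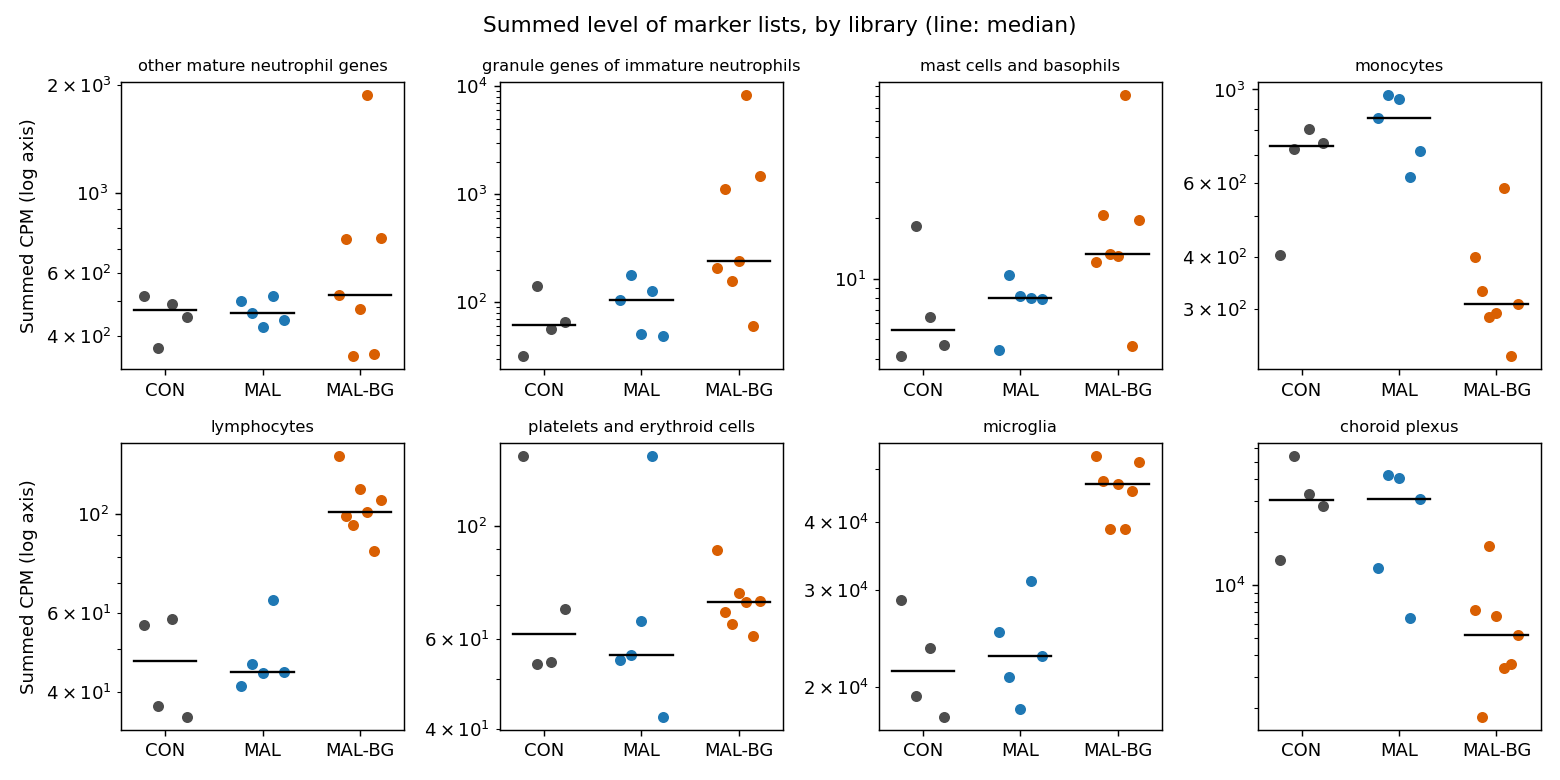
Summed CPM (log axis) of 8 marker lists in each library, with points for libraries and lines for medians of CON (n = 4), MAL (n = 5), and MAL-BG (n = 7). The sum of the granule genes of immature neutrophils reaches 8264 CPM in 1 MAL-BG library, the monocyte and choroid plexus medians are lower in MAL-BG, and the microglia and lymphocyte sums of MAL-BG lie above those of CON. In CON, Ace alone held 170.5 to 475.6 CPM of the monocyte sum.

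The genes most like the members were sought by the mean Pearson correlation of log2 CPM with the 10 members over the 7 MAL-BG libraries, as a description. Trem1, an amplifier of inflammatory signals on neutrophils, had the highest mean r (0.899), followed by Lcn2 (0.896), Cd177 (0.895), the glucose transporter Slc2a3 (0.893), Ltb4r1, a leukotriene B4 receptor (0.892), and the cell cycle factor E2f2 (0.890). Padi4, which citrullinates histones (0.889), the protease Adam8 (0.888), the erythroid and platelet factor Nfe2 (0.887), and Bst1 (0.886) completed the 10. Over the 14555 other tested genes, the median was 0.02 and the 95th percentile 0.640. The granule genes of immature neutrophils had a median mean r of 0.854 and the other mature neutrophil genes 0.842, while the microglia genes had 0.066 and the choroid plexus genes -0.55. High values were not confined to neutrophil lists. The ligands of the receptors had 0.743, the monocyte genes 0.677, the mast cell and basophil genes 0.555, and the lymphocyte genes 0.430. The remaining lists lay between -0.319 (resistin-like genes) and 0.232 (S100 genes). The order within the top rested on MAL-BG replicate 5, since 3 of the 10 genes were in the top 10 without it.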

How the data were processed

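RNA-Seq of CD11b+ brain cells was analysed in 16 libraries. The authors sequenced poly(A) libraries, aligned reads to GRCm38.p6 with STAR, and deposited raw HTSeq counts per gene. How HTSeq treated strand and overlaps, and on which annotation, is not given in the sources used here. Groups were taken from the column names, and 0 columns were left out.

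The members and gene lists were chosen with earlier results of these data known. Genes exceeding 10 counts in 4 or more libraries were tested in 1 fit of all 3 groups after TMM scaling (quasi-likelihood test, edgeR 4.0.16, R 4.3.3), with Benjamini-Hochberg adjustment over all genes tested. Standard errors are the log2 fold change divided by the square root of the F statistic. Log2 CPM used a prior count of 2. The study's code has a batch term, but batches of the libraries are not given in the sources used here, so none was fitted. Exon lengths and shared runs come from GENCODE transcripts, and upstream windows from RefSeq.

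Named genes were all members and, of each related list, up to 3 DEGs with the largest change against CON, plus a set of known markers; 1 gene under this rule is not reported here. Likeness was the mean correlation with the members. Tests of edgeR were checked on simulated data. Alternatives were DESeq2 1.42.0, other scalings and filters, no fold change threshold, fits of 2 groups, robust dispersion, thinned libraries, and each library left out.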

Additional observations from a re-analysis of the deposited data

Results flagged for a closer look

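Dixon's gap ratio was computed for the log2 CPM of each member in each group, 30 groups in all, of which chance flags about 1 in 20. MAL replicate 4 stood apart from the other 4 MAL libraries for Retnlg (gap ratio 0.775, critical value 0.71) and for Mmp9 (0.763). Retnlg measured 18.1 CPM there and 2.07 to 3.41 CPM in the other MAL libraries, and Mmp9 measured 10.4 CPM against 2.47 to 3.49 CPM. MAL replicate 4 was also the highest MAL library for S100a8, S100a9, Mmp8, Csf3r, Cxcr2, Stfa2l1, and Hdc, and Il1r2 was highest in MAL replicate 5. MAL-BG replicate 5 passed this mark for no member.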

How the results depend on the processing

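No paired analysis was possible because the numbers in the column names match no sample title. Counts of called members kept within 1.5 times of those reported under every alternative run. When each library was left out they were 6 to 7 against CON, 7 to 9 against MAL, and 0 in MAL versus CON. With the microglia list as the scale the calls went in both directions, with 6 higher and 2 lower against CON and 6 higher and 1 lower against MAL. Of all 14565 tested genes, that scale called 41 higher and 11299 lower against CON, and 39 higher and 10727 lower against MAL. The 5 values that changed sign were small apart from the last: Cxcr2 in MAL versus CON was -0.0039 with DESeq2 size factors, -0.15 with the microglia list as the scale, and -0.0041 in thinned libraries, Mmp9 in MAL versus CON was -0.056 and Hdc in MAL-BG versus CON -0.66 with the microglia list. Leaving out 1 library gave sign changes in MAL versus CON for S100a8 (-0.10 to 0.59), S100a9 (-0.11 to 0.64), Retnlg (-0.59 to 0.84), Mmp9 (-0.57 to 0.72), Cxcr2 (-0.32 to 0.21), and Csf3r (-0.22 to 0.43), and in MAL-BG versus CON for Csf3r (-0.584 to 0.0686) and Hdc (-0.0115 to 0.542). The correlation of Csf3r and Cxcr2 ranged from 0.196 to 0.828. The call of Hdc against MAL was also lost with upper-quartile scaling (0.96) and in the fit of 2 groups (0.98). By Spearman's rho, 1 of the 10 most like genes stayed in the top 10. The median of all genes against CON was 0.21 when scaled by the mean log2 CPM, with 57.9% of DEGs higher, -1.11 with the microglia list, with 0.362% higher, and -0.04 with 34.4% higher as reported. Leaving out MAL-BG replicate 5 for the lists and the likeness was chosen after seeing the data. Stfa2l1 is limited by depth, with 0 to 3.04 CPM.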
